A study of Mus musculus with 17 samples.

Results

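A set of 10 genes of inflammatory cytokine production, of the feedback on the transcription factor NF-kB and of the inflammasome were followed in 3 cell populations sorted from mouse lung tumors. They were chosen by name: Il1b, Il1a, Il1rn, Tnf, Il6, Nfkbia, Tnfaip3, Nfkb1, Nlrp3 and Casp1. All 10 were found in each of the 3 deposited tables, which held 16410 genes for tumor cells, 13545 for TRMs and 13407 for MDMs, and 17556 different genes in all. KL mice carried Lkb1fl/fl, in which Cre removes the tumor suppressor Lkb1, among their tumor-inducing alleles. KLG4 mice (Gpx4m/m) had the same alleles plus a Gpx4 gene from which an inducible Dre recombinase cuts out part of the exons once Cre has acted. Mice of both genotypes were given adenoviral Cre (Ad-Cre) into the nose and later tamoxifen, and cells were taken 10 weeks after Ad-Cre, so that both genotypes shared the tumor-inducing alleles and both treatments. Removal of Gpx4 was designed for tumor cells and not for the macrophages of the same lungs. Each of the 6 groups had 2 libraries, and the labels do not say whether the 2 came from separate mice. The study gives as many mice as libraries for tumor cells, and for TRMs and MDMs the number of mice is not given in the sources used here. The p-values are therefore taken to measure the spread between these libraries only. Tumor cells were sorted as CD45-CD31-EpCAM+, a gate that leaves out leukocytes, endothelium and cells without the epithelial marker EpCAM, although a description of the sorting scheme names CD45+ cells as the fraction from which tumor cells were taken. The labels give the names TRMs and MDMs without the gates used to sort them.

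Interleukin 1 beta (Il1b), interleukin 1 alpha (Il1a), tumor necrosis factor (Tnf) and interleukin 6 (Il6) are cytokines of early inflammation, made above all by myeloid cells and, for Il6, also by fibroblasts and epithelium. NF-kB dimers wait in the cytoplasm bound to inhibitors such as the product of Nfkbia, and enter the nucleus when a Toll-like, interleukin 1 or TNF receptor triggers the loss of the inhibitor. They then induce cytokine genes together with their own brakes, Nfkbia and Tnfaip3. The interleukin 1 beta precursor is cut to its active form by caspase 1 (Casp1), which is activated in the inflammasome that Nlrp3 nucleates, a step that messenger RNA levels do not show.

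Values are RPKM, which are reads scaled to the exon length of the gene and to the counted reads of the library, and fold changes were taken on log2(RPKM + 0.1). The libraries held 9140750 to 36616982 counted reads, and the lowest value of the 10 genes in any library, 1.64 RPKM for Casp1 in KL tumor cells, still rested on 90 reads. Gpx4, the gene targeted in KLG4 mice, was at 94.95 and 76.8 RPKM in KL and at 56.4 and 61.9 RPKM in KLG4 tumor cells, counted over exons that the design leaves in place as well. The fall was not particular to the targeted cells: Gpx4 was at 89.8 and 88.2 RPKM in KL and at 53.8 and 57.0 RPKM in KLG4 TRMs, and in MDMs it was higher in KLG4, at 44.9 and 71.3 against 93.6 and 97.7 RPKM. The KLG4 tumor libraries were much closer to each other than any other pair (chi-square per gene 3.28, against 28.9 to 131.6), so the spread between them is not shown to be that between mice. Alveolar macrophage markers summed to 8408 to 12847 RPKM in the TRM libraries. The libraries labelled MDMs went against that label in part: all 10 neutrophil markers were listed, S100a9 was at 9379 to 21106 RPKM, and Ly6g, which defines mouse neutrophils, was at 5.52 to 7.94 RPKM and was not listed in the other tables. In the same libraries all 10 monocyte and macrophage markers were listed too, with a sum of 785.8 to 980.4 RPKM (181.9 to 315.9 RPKM in TRMs) carried mostly by Cd14 at 478.8 to 887.8 RPKM, while Adgre1 was at 10.2 to 21.9 RPKM and Ly6c2 at 0.211 to 0.980 RPKM. Xist and the Y-linked gene Eif2s3y showed that both KL TRM libraries were of male and both KLG4 TRM libraries of female type, so sex and genotype cannot be told apart in TRMs. In each of the 4 tumor cell libraries the female and the male gene were found together, Eif2s3y at 7.27 to 9.26 RPKM beside 4.17 to 6.18 RPKM of Xist, and whether they pooled cells of several mice was not tested.

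In tumor cells, all 10 genes were higher in KLG4 than in KL, each with an adjusted p under 0.05 in limma and with both KLG4 libraries above both KL libraries. In the whole table, 20.6% of 13770 tested genes were called higher and 19.6% lower (40.3% in either direction), and 32.5% had both KLG4 libraries above both KL libraries. The split of these calls moved with the scaling, from 2843 higher and 2700 lower as tested to 2585 and 4130 under quantile scaling and 3206 and 2006 under limma-voom on recovered reads. The median log2 fold change was 2.54 over the 10 genes and -0.09 over all genes tested. The 10 fold changes ran from 2.71 for Nfkbia to 22.9 for Nlrp3. All 10 calls held when the KLG4 libraries were averaged into 1 sample, where 1923 genes were called in all and the spread came from the 2 KL libraries alone, and without either KLG4 replicate 1 or KLG4 replicate 2, where 1990 and 1927 genes were called against 5543 with all libraries.

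Among the ligands, Il1b was at 15.7 and 31.2 RPKM in KL and at 417 and 410.2 RPKM in KLG4 tumor cells. The lower KLG4 library lay far above the higher KL library, and the log2 fold change was 4.22 ± 0.32 (SE, adjusted p = 6.1e-04, limma). Il1a, the other interleukin 1 agonist, which also acts from dying cells without processing, was at 20.4 and 31.6 RPKM in KL and at 258.7 and 269 RPKM in KLG4, a log2 fold change of 3.37 ± 0.22 (SE). Il1rn encodes the receptor antagonist that competes with both. It was at 3.77 and 7.20 RPKM in KL and at 62.9 and 64.3 RPKM in KLG4, a log2 fold change of 3.58 ± 0.30 (SE). The agonist and the antagonist thus rose together, and the ratio of Il1rn to Il1b was 0.240 and 0.231 in KL and 0.151 and 0.157 in KLG4 libraries.

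Tnf was at 18.0 and 12.2 RPKM in KL and at 61.8 and 55.8 RPKM in KLG4 tumor cells, with a log2 fold change of 1.98 ± 0.21 (SE). Il6 was at 7.24 and 6.06 RPKM in KL and at 35.5 and 34.7 RPKM in KLG4, with a log2 fold change of 2.39 ± 0.14 (SE). Both cytokines thus rose by less than the interleukin 1 genes on this scale, and the 95% intervals of Tnf (1.45 to 2.50) and Il1b (3.42 to 5.01) did not overlap.

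Of the feedback genes, Nfkbia, the inhibitor that holds NF-kB in the cytoplasm, was already abundant in KL tumor cells. Its levels were 155.9 and 160.7 RPKM in KL and 423.4 and 435.3 RPKM in KLG4, and its log2 fold change of 1.44 ± 0.11 (SE) was the smallest of the 10. Tnfaip3, which encodes the ubiquitin-editing enzyme A20, was at 27.1 and 30.4 RPKM in KL and at 187.3 and 186.7 RPKM in KLG4, a log2 fold change of 2.70 ± 0.12 (SE). The ratio of Tnfaip3 to Nfkbia was 0.174 and 0.189 in KL and 0.442 and 0.429 in KLG4 tumor cells, so the brakes did not move in proportion. Nfkb1, which encodes the p50 subunit and its precursor, was at 4.02 and 5.59 RPKM in KL and at 15.6 and 17.7 RPKM in KLG4 (1.79 ± 0.20, SE).

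Nlrp3 had the largest change of the 10 genes. It was at 4.44 and 11.9 RPKM in KL and at 172.1 and 165.9 RPKM in KLG4 tumor cells, a log2 fold change of 4.52 ± 0.44 (SE), and the ratio between the KL libraries was larger than for any other of the 10 genes. Casp1 was low in both groups, at 1.64 and 2.03 RPKM in KL and at 9.20 and 9.52 RPKM in KLG4 (2.30 ± 0.18, SE). The sensor therefore rose more than the protease, and the ratio of Nlrp3 to Casp1 was 2.71 and 5.84 in KL against 18.7 and 17.4 in KLG4 libraries. Adjusted p-values of these 10 genes in limma lay between 1.7e-04 and 0.0020.

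**Figure D1:**
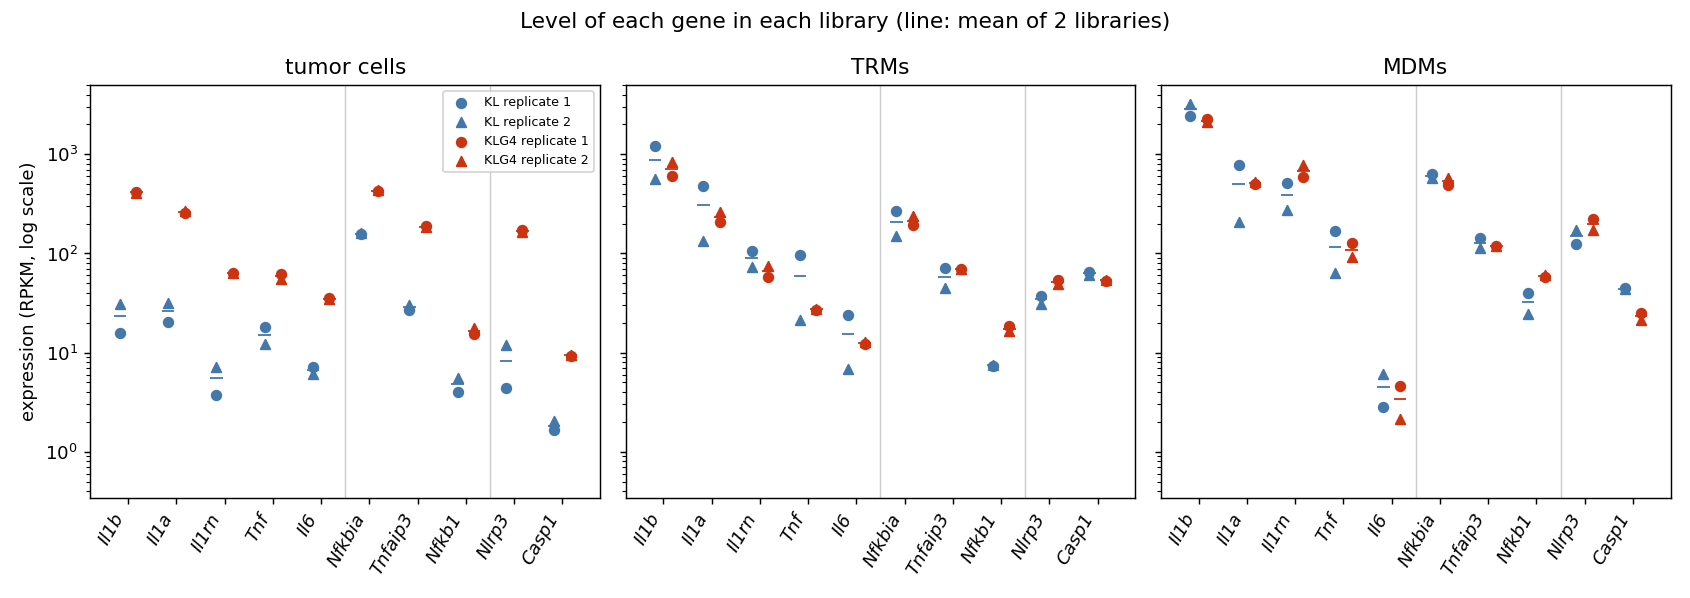
RPKM on a log axis of each of the 10 genes in each library, with 1 panel for each population, KL in blue and KLG4 in red, replicates 1 and 2 as circles and triangles, and the mean of 2 libraries as a line. Red lies above blue for all 10 genes in tumor cells, whereas the colors overlap or lie close for most genes in TRMs and MDMs.

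Genes of several other cell types moved with these values in the tumor cell libraries. All 10 leukocyte markers were called higher in KLG4, and their summed level was 27.2 and 41.8 RPKM in KL against 387.5 and 394.8 RPKM in KLG4. Ptprc, which encodes CD45, was at 0.834 and 2.06 RPKM in KL and at 26.7 and 27.4 RPKM in KLG4. Of the neutrophil markers, 8 of the 9 listed were called higher, Ly6g was not listed, and the sum was 600.1 to 630.0 RPKM in KL and 2697 to 2773 RPKM in KLG4. Ltf, the marker that was not called, made up most of the KL sum (439.8 and 304.8 RPKM, against 426.5 and 445.2 RPKM in KLG4), while S100a9 went from 165.5 and 247.7 to 1983 and 1886 RPKM. All 8 tested monocyte and macrophage markers were called higher (19.8 and 26.6 RPKM summed in KL, 206.2 and 208.6 RPKM in KLG4), with Ly6c2 not listed, as were all 6 tested dendritic cell markers and all 6 tested T and NK cell markers. Of the B and plasma cell markers, 5 of 6 tested were called higher. Jchain was at 0.304 and 0.631 RPKM in KL and at 101 and 111.5 RPKM in KLG4. Of 10 alveolar macrophage markers, 6 were called higher and 0 lower. Among those not called, Fabp4, Pparg and Krt79 had both KLG4 libraries below both KL libraries. All 8 fibroblast markers were called higher as well, from 11.4 and 16.6 RPKM summed in KL to 389.8 and 388.2 RPKM in KLG4. The 8 epithelial markers were all called lower, from 8482 and 6308 RPKM summed to 3634 and 3652 RPKM, as were the 10 alveolar type 2 markers, from 3787 and 4237 to 1296 and 1315 RPKM. Endothelial markers had 3 of 6 tested called higher, with a sum of 21.9 and 17.3 RPKM in KL and 23.5 and 25.8 RPKM in KLG4, and Mcpt8, the 1 tested marker of mast cells and basophils, was called lower (61.3 and 26.9 against 6.89 and 5.29 RPKM). The sort for EpCAM+ cells without CD45 is meant to leave leukocytes and fibroblasts out. The part of these cells in the changes of the 10 genes was not tested, and in bulk libraries a change in the share of a cell type and a change in RNA per cell cannot be told apart.

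Set against the summed leukocyte markers of the same library, the 10 genes fell into different patterns. Il1a came to 75.1% and 75.6% of the leukocyte sum in KL and to 66.8% and 68.1% in KLG4 tumor cells, and Il1rn to 13.9% and 17.2% against 16.2% and 16.3%. The more than 10-fold rises of Il1a and Il1rn in RPKM were thus matched by the summed leukocyte markers. Il1b was at 57.9% and 74.5% of that sum in KL and at 107.6% and 103.9% in KLG4, and Nlrp3 at 16.4% and 28.3% against 44.4% and 42.0%, so that both were higher in both KLG4 libraries also on this scale. Against Ptprc alone, however, Il1b was at 18.9 and 15.1 times its level in KL and 15.6 and 15.0 times in KLG4. Nlrp3 was at 5.33 and 5.75 times the level of Ptprc in KL and at 6.44 and 6.06 times in KLG4. Il1a went from 24.5 and 15.3 times the level of Ptprc in KL to 9.68 and 9.84 times in KLG4, and Il1rn from 4.52 and 3.49 to 2.35 and 2.35 times. The size of the difference between the genotypes per leukocyte gene thus depended on the reference for each of these genes. Il1a was lower and Nlrp3 higher in both KLG4 libraries on both scales. Il1b overlapped between the genotypes against Ptprc, and Il1rn overlapped against the leukocyte sum.

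The other members were lower per leukocyte marker in KLG4. Nfkbia went from 573.9% and 383.9% of the leukocyte sum in KL to 109.3% and 110.3% in KLG4, and Tnfaip3 from 99.95% and 72.6% to 48.3% and 47.3%. Tnf went from 66.4% and 29.2% to 15.9% and 14.1%, and Il6 from 26.7% and 14.5% to 9.15% and 8.78%. Nfkb1 (14.8% and 13.4% against 4.02% and 4.49%) and Casp1 (6.05% and 4.86% against 2.37% and 2.41%) did the same. These ratios are descriptions and carry no test. The leukocyte sum they divide by was 27.2 and 41.8 RPKM in KL and 387.5 and 394.8 RPKM in KLG4. They are not levels per leukocyte, since which cells held the transcripts of the 10 genes was not tested.

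**Figure D2:**
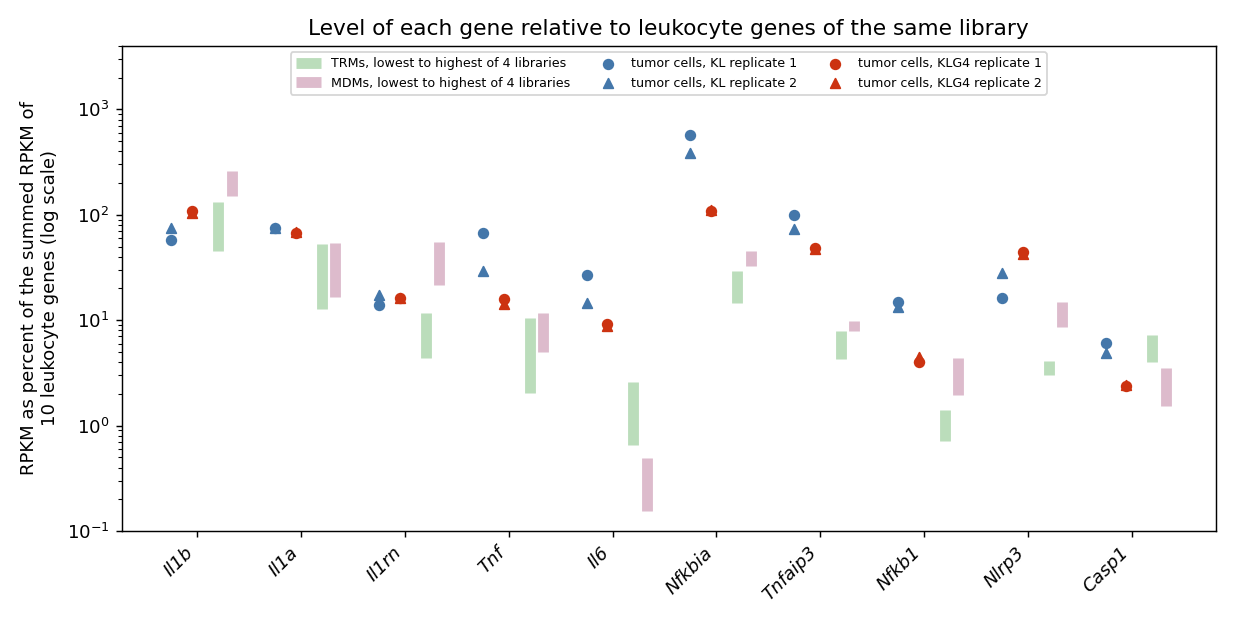
RPKM of each gene as a percent of the summed RPKM of 10 leukocyte markers in the same library, on a log axis, with the tumor cell libraries as points (KL blue, KLG4 red) and the range over the 4 TRM and the 4 MDM libraries as bars. Il1a and Il1rn sit at about the same height in KL and KLG4 tumor cells, Il1b and Nlrp3 are higher in KLG4, and the other 6 genes are lower in KLG4, while Il1a, Tnf, Il6, Nfkbia, Tnfaip3 and Nlrp3 stay above both bars in all 4 tumor cell libraries.

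The start regions of 9 of the 10 genes were read from RefSeq promoter windows of GRCm38.p6, with 250 bases before a start. Of all 32851 such windows, 3.9% held the NF-kB consensus on either strand, and the members Il6, Nfkbia, Tnfaip3 and Nlrp3 had a window that did. The AP-1 motif TGANTCA was in 6.75% of all windows and in a window of Il1a, Il1rn, Il6 and Tnfaip3. Shares are per window, whereas a member was counted when any of its windows held the motif, and Il1rn, Tnfaip3 and Nlrp3 had more than 1. The C/EBP motif ATTGCNNAAT was in 0.539% of windows and, of the members, only in that of Il6, and the motif TGACGTCA in 1.55% of windows and in none of the members'. Both strands were searched for each motif, TGANTCA and TGACGTCA read the same on both, and no sites of different motifs overlapped in the members. The windows of Nfkbia, Il6 and Il1b are shown because they rose together in tumor cells from unlike levels, and because their motif content differs. They lie at chr12:55492648-55492897 (minus strand), chr5:30012864-30013113 (plus strand) and chr2:129371140-129371389 (minus strand), with no annotated exon inside, and are printed 5′ to 3′ on the strand of the gene up to the base before the start. Capitals mark the NF-kB consensus in Nfkbia, and in Il6, in order, the AP-1 motif, the C/EBP motif and the NF-kB consensus.
Nfkbia: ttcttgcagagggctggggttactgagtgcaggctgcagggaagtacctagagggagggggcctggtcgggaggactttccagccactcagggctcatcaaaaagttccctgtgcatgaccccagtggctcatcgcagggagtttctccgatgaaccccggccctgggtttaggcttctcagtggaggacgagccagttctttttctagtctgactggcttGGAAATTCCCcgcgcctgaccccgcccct
Il6: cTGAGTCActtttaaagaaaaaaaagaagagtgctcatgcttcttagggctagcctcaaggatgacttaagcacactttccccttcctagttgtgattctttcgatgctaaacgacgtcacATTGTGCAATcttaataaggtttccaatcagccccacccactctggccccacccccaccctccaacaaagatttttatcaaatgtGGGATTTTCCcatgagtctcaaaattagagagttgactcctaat
Il1b: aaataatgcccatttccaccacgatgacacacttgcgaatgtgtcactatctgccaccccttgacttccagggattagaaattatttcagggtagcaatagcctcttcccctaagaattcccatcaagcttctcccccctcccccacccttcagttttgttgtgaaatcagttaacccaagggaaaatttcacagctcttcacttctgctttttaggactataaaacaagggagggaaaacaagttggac
The NF-kB consensus lay 29 to 20 bases before the start in Nfkbia and 44 to 35 bases before it in Il6. Il1b held none of the 4 motifs in this window, which says only that these letters are not there. A match is a description and not evidence of binding.

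The rest of the pathway was read from 8 lists of related genes, of which 60 of 102 tested genes (58.8%) were called higher in tumor cells and 5 (4.9%) lower, beside 20.6% and 19.6% of all genes. In tumor cells, 17 of 20 tested NF-kB target genes were called higher and 0 lower, with a median log2 fold change of 2.53. Among them were Bcl2a1b, a survival factor of the BCL2 family (7.22 and 7.37 RPKM in KL, 50.6 and 47.6 RPKM in KLG4), and Csf1, the growth factor of macrophages (0.693 and 1.01 RPKM against 11.8 and 13 RPKM). Cxcl3, a chemokine for neutrophils, went from 12.1 and 10.4 to 44.7 and 48.9 RPKM, and Gadd45b from 61.6 and 59.9 to 205.3 and 229.9 RPKM. These genes of cytokine response thus rose with the members in the same libraries. The leukocyte markers rose there too, with a median log2 fold change of 3.58. The part of leukocytes in the calls of these lists was not tested. Of 18 other feedback genes, 12 were called higher and 0 lower. Nfkbiz, an atypical nuclear inhibitor protein needed for part of the targets, went from 25.9 and 29.0 to 105.4 and 104.3 RPKM, and Nfkbid, its relative, from 1.98 and 2.42 to 11.4 and 11.4 RPKM. Nfkbie, a further cytoplasmic inhibitor, had a log2 fold change of 1.59 and Zfp36, which destabilizes cytokine transcripts, of 1.31.

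The machinery itself had a smaller median. Of 11 NF-kB subunits and IKK complex genes, 3 were called higher and 0 lower, and the median log2 fold change was 0.14. The 3 were Rel (3.81 and 4.05 RPKM in KL, 22.7 and 23.9 RPKM in KLG4), a subunit typical of blood cells, Map3k14, the kinase of the alternative pathway (1.64), and Nfkb2, its subunit (0.48). Of 9 tested Toll-like and interleukin 1 receptor adaptors, 2 were called higher, Irak2 (1.37) and Myd88 (0.81). These shares, 27.3% of the subunits and 22.2% of the adaptors, were near the 20.6% of all genes called higher. The difference between these lists and the targets was not tested.

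Receptors and partners of the ligands were mixed. In the interleukin 1 family, 5 of 10 tested genes were called higher and 2 lower. Il1r2, a decoy receptor that binds interleukin 1 without signaling, went from 3.44 and 5.42 to 69.1 and 67.9 RPKM (log2 fold change 3.96 ± 0.23, SE), and Il1rap, the shared co-receptor, from 0.303 and 0.483 to 4.599 and 4.14 RPKM. Il1rl1, the receptor of interleukin 33, went from 0.0951 and 0.0480 to 2.16 and 2.00 RPKM, while Il18r1, a receptor chain for interleukin 18, fell from 40.9 and 40.3 to 23.7 and 22.5 RPKM. Of 12 genes of the TNF family and its receptors, 6 were called higher and 1 lower, with Ltb (3.52), Tnfrsf1b (1.88), Birc3 (1.79) and Birc2 (1.17) the first by p. Of 9 tested genes of interleukin 6 signaling, 7 were called higher and 1 lower. Osm, a myeloid cytokine of the same family, went from 1.57 and 2.88 to 38.8 and 34.0 RPKM, and Jak2, a kinase of its receptors, from 22.9 and 24.0 to 87.9 and 88.4 RPKM. Socs3, the feedback inhibitor of that kinase pathway, had a log2 fold change of 0.84 and Il6ra, the receptor chain, of 1.65. Of 13 other inflammasome genes, 8 were called higher and 1 lower. Mefv, which encodes the sensor pyrin, went from 1.17 and 3.24 to 45.5 and 50.1 RPKM, Casp4, the caspase of the noncanonical pathway, from 2.09 and 2.36 to 13.8 and 14.7 RPKM, and Aim2, a DNA sensor, from 2.49 and 2.19 to 7.85 and 6.997 RPKM. Ninj1, which ruptures the membrane of dying cells, had a log2 fold change of 1.42.

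Of 13 immediate early and heat shock genes, 1 was called higher and 5 lower in KLG4 tumor cells, beside 20.6% and 19.6% of all genes. Egr2 went from 3.26 and 2.55 to 11.5 and 12.5 RPKM, whereas Fos went from 563.1 and 535.3 to 323.1 and 331.1 RPKM, Hspa1a from 393.7 and 446.9 to 210.5 and 210.1 RPKM and Dnajb1 from 81.5 and 67.6 to 47.8 and 45.6 RPKM.

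In TRMs, Nfkb1 alone of the 10 genes passed the test, beside 1.8% of 10990 genes tested (150 higher and 48 lower, but 23 and 37 under quantile scaling). It was at 7.35 and 7.51 RPKM in KL and at 18.6 and 16.4 RPKM in KLG4 TRMs, with a log2 fold change of 1.22 ± 0.19 (SE) and an adjusted p of 0.047 in limma. The median over all genes was 0.38 in this comparison and under the 3 other scalings of RPKM the log2 fold change of Nfkb1 was 0.83 to 0.85 with an adjusted p of 0.106 to 0.118 in limma, whereas limma-voom on recovered reads kept the call (0.85, adjusted p = 0.012) and also called Casp1 lower in KLG4 (-0.63, adjusted p = 0.047). The call was also lost without KL replicate 1, without KLG4 replicate 1 and without KLG4 replicate 2 (adjusted p = 0.072, 0.201 and 0.108, limma). A pseudocount of 0.01, no filter and no trend lost the call of Nfkb1 as well (adjusted p = 0.053, 0.054 and 0.097, limma). At an unadjusted p under 0.05 there were 2 of the 10 genes, against 28.3% of all genes. The second was Nlrp3, at 37.6 and 31.2 RPKM in KL and 54.0 and 48.9 RPKM in KLG4 (0.58, 95% interval 0.14 to 1.02). Nfkb1 and Nlrp3 had both KLG4 values above both KL values, as had 53.7% of all genes, and Casp1 had them below (65.6 and 60.9 against 52.7 and 54.5 RPKM), as had 8.95%.

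The 5 ligands did not pass in TRMs, and the KL libraries differed from each other more than the groups did. Il1b was at 1207 and 565 RPKM in KL and at 603.6 and 834 RPKM in KLG4, so the KLG4 values lay inside the KL range (log2 fold change -0.22, 95% interval -1.14 to 0.70). The same held for Il1a, at 484.3 and 133.8 RPKM in KL and 205.7 and 261.6 RPKM in KLG4, for Tnf, at 96.8 and 21.2 RPKM in KL and 26.7 and 27.7 RPKM in KLG4, and for Il6, at 23.9 and 6.76 RPKM in KL and 12.3 and 12.8 RPKM in KLG4. Il1rn was at 106.9 and 73.5 RPKM in KL and at 58.3 and 75.0 RPKM in KLG4. For all 5 ligands the KL replicate 1 library was the highest of the 4. Il1a, Tnf and Il6 had log2 fold changes of 0.79, 0.36 and 0.88 when KL replicate 1 was left out. When KL replicate 2 was left out instead, the values came to -1.06, -1.83 and -0.92, with an adjusted p of 0.038, 0.017 and 0.034 in limma, so these directions rested on single libraries. Genes called in all numbered 113 without the first and 2382 without the second. The 4 TRM libraries also differed in mitochondrial reads, which took 31.5% and 22.3% of the reads in KL and 2.95% and 5.78% in KLG4, and their summed alveolar type 2 epithelial markers were at 199.5 and 209.4 RPKM in KL and at 70.2 and 104.6 RPKM in KLG4. The summed neutrophil markers were highest in the same library as the ligands, at 240.2 RPKM in KL replicate 1 against 155.2 RPKM in KL replicate 2 and 120.0 and 92.1 RPKM in KLG4. S100a9 made up most of that sum (190.6 RPKM in KL replicate 1), and Ngp (1.31 RPKM, against 1.97 to 4.32 RPKM) was lowest in that library. The part of these differences in the values of the ligands was not tested. Nfkbia (268.7 and 150.5 RPKM in KL, 192.2 and 237.1 RPKM in KLG4) and Tnfaip3 (71.9 and 45.04 RPKM against 70.2 and 69.1 RPKM) overlapped between the groups, and the sign of their small differences (0.09 and 0.29) turned under TMM scaling (-0.29 and -0.09).

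Over the 8 lists of the pathway, 2 of 95 tested genes (2.11%) were called in TRMs, close to the 1.8% of all genes. They were, by the order of p within the lists, Jak2 (14.5 and 14.7 RPKM in KL, 32.5 and 46.9 RPKM in KLG4) and Tnip3, which encodes a partner of A20 (3.36 and 2.70 RPKM against 9.11 and 11.6 RPKM), both with an adjusted p just under the threshold (0.049 and 0.046, limma). None of the NF-kB targets, subunits, adaptors and inflammasome genes tested was called, nor any tested gene of the interleukin 1 and TNF lists. Rel was at 12.6 and 13.4 RPKM in KL and 24.2 and 25.4 RPKM in KLG4 (adjusted p = 0.059, limma). Jund, of the immediate early list, went from 18.5 and 12.6 to 42.5 and 53.8 RPKM.

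In MDMs, 0 of the 10 genes and 0.0% of 10475 genes (0 in all) passed the test in limma, and limma-voom on recovered reads called 0 as well. At an unadjusted p under 0.05 there were 2 of the 10 genes against 6.74% of all genes, which was 706 genes. Casp1 was at 44.8 and 43.8 RPKM in KL and at 25.1 and 21.3 RPKM in KLG4 MDMs, with a log2 fold change of -0.94 (95% interval -1.46 to -0.42, adjusted p = 0.679, limma). Both KLG4 libraries lay below both KL libraries for Casp1 and for Il1b, as for 19.1% of all genes. Nfkb1 was at 39.6 and 24.5 RPKM in KL and at 58.5 and 61.2 RPKM in KLG4 (0.94, 95% interval 0.18 to 1.70), with both KLG4 libraries above, as for Il1rn and for 25.4% of all genes.

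Il1b, Il1a, Il1rn and Tnf had high levels in MDMs of both genotypes, and Il6 did not. Il1b was at 2450.2 and 3239 RPKM in KL and at 2262 and 2102 RPKM in KLG4 (-0.37, 95% interval -0.998 to 0.26, but 0.24 under quantile scaling), and Il1rn at 512.4 and 272.4 RPKM in KL and 587.7 and 775.8 RPKM in KLG4 (0.85, 95% interval -0.13 to 1.83). The KL libraries again stood apart for Il1a, at 789 and 209.2 RPKM against 499.7 and 527.7 RPKM in KLG4, and for Tnf, at 169.4 and 62.9 RPKM against 126.3 and 91.9 RPKM. Il6 was low in all 4 libraries (2.80 and 6.11 RPKM in KL, 4.61 and 2.15 RPKM in KLG4). Nfkbia was at 489.4 to 628.9 RPKM, Tnfaip3 at 112.8 to 142.8 RPKM and Nlrp3 at 125.9 to 220.2 RPKM over the 4 libraries, with overlapping groups for all 3. KL replicate 2 held more C1qa (92.7 RPKM, against 16.0 to 24.4 RPKM in the other 3 libraries), more Cx3cr1 (42.0 against 5.07 to 7.23 RPKM) and less S100a9 (9379 against 16079 to 21106 RPKM), and its summed alveolar type 2 epithelial markers were at 405.9 RPKM against 56.1 to 175.4 RPKM. Its Xist level was 0.839 RPKM, whereas the other 3 were at 19.4 to 21.8 RPKM, and Eif2s3y was not listed in this table. Without KL replicate 1 the adjusted p fell under 0.05 in limma for Il1a (1.29), Il1rn (1.31), Nfkb1 (1.29) and Casp1 (-0.92), when the KL group was KL replicate 2 alone, with 2682 genes called in all.

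**Figure D3:**
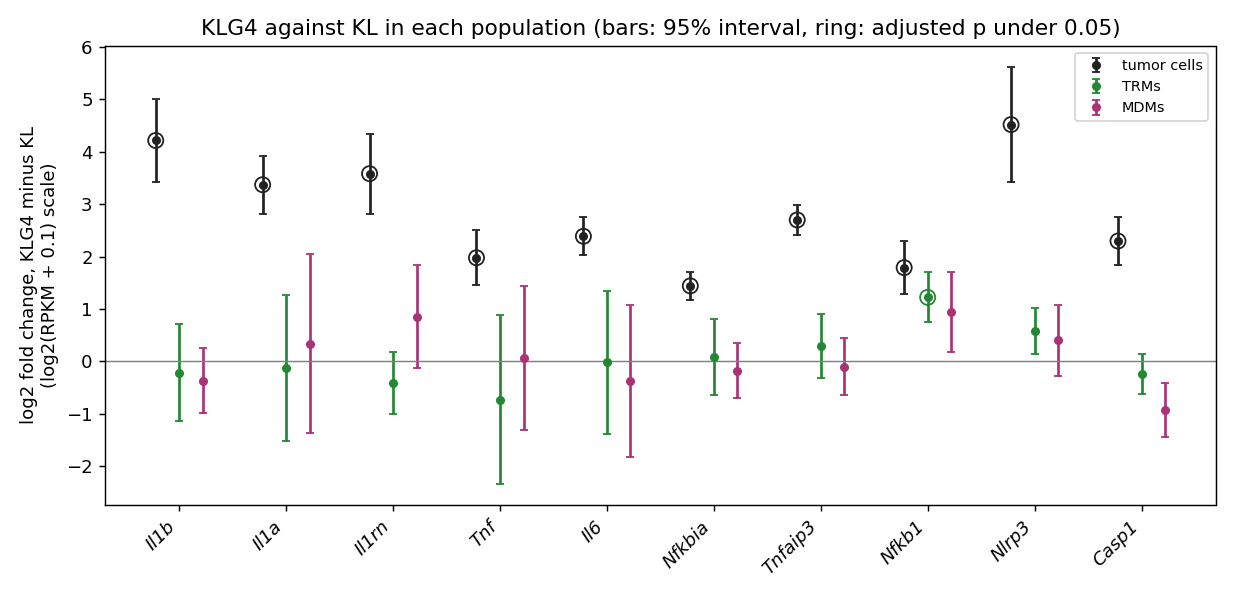
Log2 fold change of KLG4 over KL for each of the 10 genes in tumor cells (black), TRMs (green) and MDMs (purple), with 95% intervals from limma as bars and a ring where the adjusted p was under 0.05. The 10 tumor cell values lie between 1.44 and 4.52, and among the TRM and MDM values only Nfkb1 in TRMs (1.22) has a ring.

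Whether the KLG4 effect differed between populations was tested directly in 1 fit over the 12 libraries. This fit took 1 spread per gene over all populations, so each p-value also carries the spread of the population not compared. The effect in tumor cells was larger than in TRMs for 7 of the 10 genes at an adjusted p under 0.05, against 20.4% of 11468 genes that differed in either direction. They were Il1b (difference of the log2 fold changes 4.43, 95% interval 3.22 to 5.65), Il1rn (4.01), Nlrp3 (3.94), Il1a (3.50), Casp1 (2.53), Tnfaip3 (2.41) and Nfkbia (1.35). Against MDMs there were also 7, beside 12.1% of all genes: Il1b (4.59), Nlrp3 (4.12), Casp1 (3.23), Tnfaip3 (2.80), Il6 (2.77), Il1rn (2.73) and Nfkbia (1.62). Tnf did not pass in either comparison as tested, with differences of 2.71 (95% interval 0.76 to 4.66) and 1.91 (-0.03 to 3.86), nor did Nfkb1, at 0.57 (-0.20 to 1.33) and 0.85 (0.08 to 1.61). Both comparisons use the same tumor cell libraries. The effects in TRMs and MDMs differed for 0 of the 10 genes in limma, beside 0.227% of all genes, and for 18.4% of all genes at an unadjusted p under 0.05. At that unadjusted level 2 of the 10 genes differed, Il1rn (-1.28) and Casp1 (0.70). Il1b, Il1rn, Tnfaip3, Nlrp3 and Casp1 kept both calls whichever library was left out. The call of Nfkbia against TRMs was lost without KL replicate 1, KL replicate 2, KLG4 replicate 1 or KLG4 replicate 2 of the tumor cells and without KL replicate 1 or KLG4 replicate 1 of the TRMs (differences 0.94 to 1.37, adjusted p = 0.053 to 0.092, limma). That of Il1a against TRMs was lost without the same libraries except KL replicate 2 of the tumor cells (2.58 to 3.53, adjusted p = 0.066 to 0.080). Against MDMs, the call of Nfkbia was lost without KL replicate 1, KLG4 replicate 1 or KLG4 replicate 2 of the tumor cells or KLG4 replicate 1 of the MDMs (1.501 to 1.64, adjusted p = 0.051 to 0.061), and that of Il6 without any 1 of the tumor cell libraries and without KL replicate 2 or KLG4 replicate 2 of the MDMs (2.22 to 2.89, adjusted p = 0.111 to 0.176). The call of Il6 against MDMs was also lost under TMM and quantile scaling and with a pseudocount of 0.01 (2.71 to 2.79, adjusted p = 0.052 to 0.055). With the replicate block, this call and that of Nfkbia against TRMs were lost. Il6 against TRMs (2.41, adjusted p = 0.055) and Il1a against MDMs (3.03, adjusted p = 0.054) missed the threshold in limma narrowly. Of 6 alternatives, 4 called Tnf against TRMs (pseudocount 1, quantile scaling, reads outside mitochondrial genes and the replicate block, adjusted p = 0.031 to 0.047), 4 called Il6 against TRMs (pseudocount 1 and the 3 other scalings, 0.037 to 0.047) and 3 called Il1a against MDMs (pseudocount 1, reads outside mitochondrial genes and the block, 0.045 to 0.04995). Tnf and Il6 also passed against TRMs without KL replicate 2 of the TRMs (3.80 and 3.31), and Il1a and Nfkb1 passed against MDMs without KL replicate 2 of the MDMs (3.99 and 1.19).

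**Figure D4:**
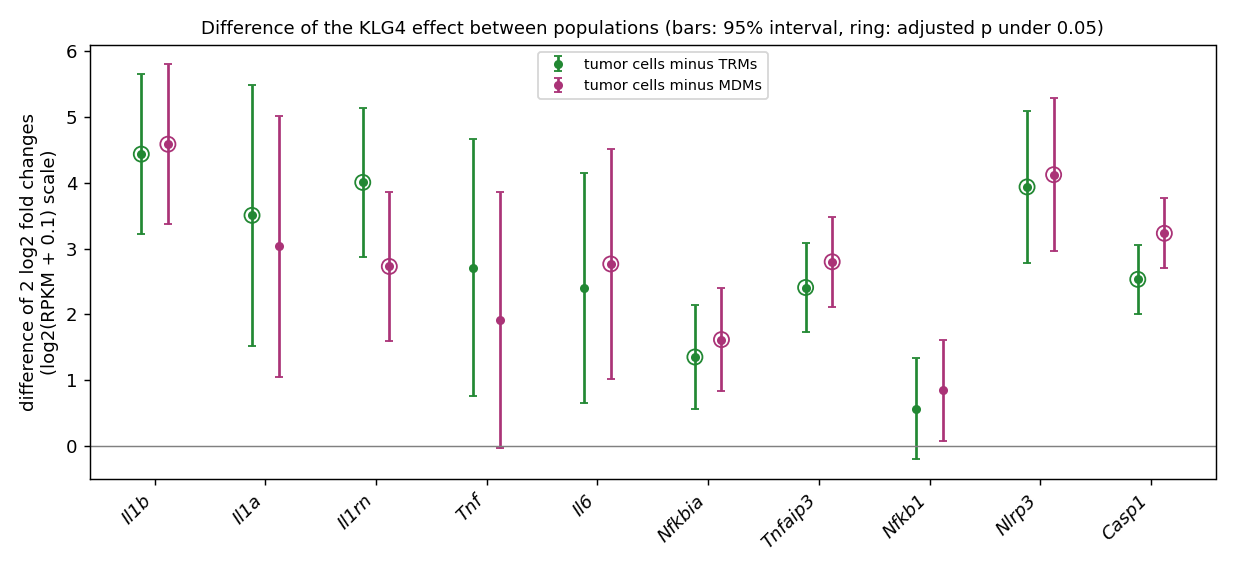
Difference between the log2 fold change in tumor cells and that in TRMs (green) or MDMs (purple) for each of the 10 genes, with 95% intervals as bars and a ring where the adjusted p was under 0.05. All 20 differences lie above 0, and those of Nfkb1 (0.57 and 0.85) are the lowest.

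The levels of the 10 genes across the 6 groups can be described but were not tested, since each population was deposited as its own table. Of the 60 ranks of the 10 genes in the 6 groups, 52 were kept after rescaling to reads outside mitochondrial genes and 48 after TMM scaling, and the highest group stayed the same for all 10 genes under both. Il1b was highest in MDMs (KL, then KLG4), followed by TRMs, then KLG4 tumor cells and KL tumor cells. The ranges of the 2 TRM groups overlapped, and those of the other neighbors in this order did not. KLG4 tumor cells stayed below all 8 TRM and MDM libraries for Il1b and for Casp1, whose order was KL TRMs, KLG4 TRMs, KL MDMs, KLG4 MDMs, KLG4 tumor cells and KL tumor cells with no overlap between neighbors. They were above all 8 for Il6 (34.7 and 35.5 RPKM, against 2.15 to 23.9 RPKM) and for Tnfaip3 (186.7 and 187.3 RPKM, against 45.04 to 142.8 RPKM). For Nlrp3, KLG4 tumor cells were above 5 of the 8 libraries and second in order after KLG4 MDMs, and for Nfkbia above 4. For Il1a and Tnf they were above 3 of the 8, for Nfkb1 above 2 and for Il1rn above 1. KL tumor cells were the lowest group for 9 of the 10 genes, and for Il6 they lay between KLG4 TRMs and KL MDMs. For Il1a, KLG4 and KL MDMs, KL TRMs and KLG4 tumor cells each overlapped the next group in the order. For Il1rn, KLG4 MDMs and KL MDMs were highest without overlap, while KL TRMs and KLG4 TRMs each overlapped the next group and KLG4 tumor cells did not. Nfkb1 was highest in KLG4 MDMs, then KL MDMs, then KLG4 TRMs and KLG4 tumor cells, of which the last 2 groups overlapped.

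The ratios among the genes also differed between populations. Il6 was at 0.401 to 0.622 times the level of Tnf in tumor cells, at 0.247 to 0.463 times in TRMs and at 0.0165 to 0.0973 times in MDMs. Nlrp3 was at 0.513 to 1.02 times the level of Casp1 in TRMs, at 2.81 to 8.78 times in MDMs and at 2.71 to 18.7 times in tumor cells, and in each population both KLG4 libraries had the higher ratio.

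Likeness of pattern was measured as Pearson's r of log2(RPKM + 0.1) over the 12 libraries, among 6241 genes that were listed in all 3 tables and had a mean of at least 5 RPKM over the 12 libraries. The 5 genes most like Il1b were Coro1a, Slfn2, Ptpre, Igsf6 and Plek (r = 0.987 to 0.9895), of which Coro1a was also a leukocyte marker here. The 5 most like Nfkbia were Il1bos, Cxcl2, Zfp961, Clec4d and Retnlg (r = 0.969 to 0.987), of which Retnlg was also a neutrophil marker here. These values are descriptions: they rest on 3 populations and on tumor cell libraries whose leukocyte genes differ between genotypes.

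By position (GRCm38), Il1b (chromosome 2, 129364570 to 129371139, minus strand) and Il1a (chromosome 2, 129299610 to 129309972, minus strand) are neighbors, and Il1rn lies farther off on the same chromosome (24336853 to 24351494, plus strand). Reads were counted without strand, and the exons of Il1b overlap those of Il1bos, and the exons of Il1a those of Gm14023, both on the opposite strand. Gm14023 was at 10.5 and 18.4 RPKM in KL and at 129.3 and 138.3 RPKM in KLG4 tumor cells. Where the exons of Il1a and Gm14023 overlap, reads of the genes cannot be told apart. Il1bos was at 0.513 and 1.23 RPKM in KL and at 17.6 and 15.8 RPKM in KLG4 tumor cells, far below Il1b on the per length scale. No other member shared exons with another gene.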

How the data were processed

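Bulk RNA sequencing libraries of tumor cells, TRMs and MDMs were used (12 libraries, 2 per genotype and population), and 5 of the 17 samples (CD8+ T cells and monocytes) were not analysed here. The authors deposited RPKM values per gene in 3 tables, made from poly(A) libraries without strand information. The submitters' processing notes name Trim Galore 0.6.4, HISAT2 2.0.5 and featureCounts 2.0.0, and the annotation was of GRCm38. Columns with the authors' own fold changes and p-values were not used. Samples were grouped by their titles. One allele shared by both genotypes is not reported here.

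A gene was tested when 2 or more of the 4 libraries of its table reached 1 RPKM, and the test was made on log2(RPKM + 0.1), two-sided, with limma 3.58.1 (lmFit, eBayes with a mean-variance trend) in R 4.3.3, and p-values were adjusted over all genes of a table by Benjamini-Hochberg at 0.05. The difference of genotype effects between populations was tested in 1 limma fit over the 12 libraries. Both fits were tested on simulated data. In each, the simulated spread was the same for all libraries, unlike that of the real libraries. RPKM times gene length gave whole reads within 0.05 for 99.98 to 100% of values under 2000 reads, and these recovered reads served for depth and for limma-voom. The depth was 9140750 to 36616982 reads per library, and with 2 libraries per group the precision was set by the spread between libraries.

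The 10 genes and all lists were chosen with earlier results of these data known. From each other list at most 4 genes per table were named, those with an adjusted p under 0.05 by smallest p or, where none passed, up to 2 by smallest p. For likeness, the 5 genes with the highest correlation were named. Markers singled out beyond this rule (Ptprc, Ly6g, Ly6c2, C1qa, Cx3cr1, Ltf and S100a9) were chosen after their values were seen. Alternatives were the pseudocount, the filter, the scaling (quantile, TMM, reads outside mitochondrial genes), no trend, a replicate block, limma-voom, the threshold of the study (unadjusted p under 0.05 and at least 2-fold) and leaving out each library. Averaging the KLG4 tumor libraries was chosen after seeing the data.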

Additional observations from a re-analysis of the deposited data

Results flagged for a closer look

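The difference between KLG4 and KL libraries differed between populations for the following genes by the test of the difference itself in limma, with an adjusted p under 0.05. Differences are between log2 fold changes, and positive values mean a larger rise in tumor cells. In TRMs sex and genotype cannot be told apart, and the KLG4 tumor cell libraries held more leukocyte and fibroblast transcripts, whose part was not tested.

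Between tumor cells and TRMs the difference was 4.43 for Il1b, 4.01 for Il1rn, 3.94 for Nlrp3, 3.50 for Il1a, 2.53 for Casp1, 2.41 for Tnfaip3 and 1.35 for Nfkbia. Between tumor cells and MDMs it was 4.59 for Il1b, 4.12 for Nlrp3, 3.23 for Casp1, 2.80 for Tnfaip3, 2.77 for Il6, 2.73 for Il1rn and 1.62 for Nfkbia. Both sets of values use the same 4 tumor cell libraries. The calls of Il1a and Nfkbia against TRMs were lost when some single libraries were left out. So were those of Il6 and Nfkbia against MDMs.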

How the results depend on the processing

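Of 854 values recomputed under alternatives, 719 kept their direction and side of the threshold, or stayed within 1.5 times for counts, 24 changed sign, 35 lost a call, 23 gained one and 53 counts moved further. The 10 tumor cell calls held under all 11 alternatives and all 4 omissions of a library. Where a value changed, the cause was not tested.

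Genes called in tumor cells numbered 1923 with the KLG4 libraries averaged and 3281 at the threshold of the study, and 1927 to 7372 when 1 library was left out. In TRMs, genes called numbered 490 with a pseudocount of 1, 122 with 0.01, 120 without a filter, 60 under quantile scaling, 28 under TMM scaling, 31 on reads outside mitochondrial genes, 12 without a trend, 761 under limma-voom, 1546 at the threshold of the study and 113 to 2382 without 1 library, against 198. Of the 10 genes, 0 were called with a pseudocount of 0.01, without a filter, without a trend and under the 3 other scalings, 2 under limma-voom, and 0 to 4 without 1 library. In MDMs, 430 genes passed the threshold of the study, and without 1 library 0 to 2682 genes and 0 to 4 of the 10 were called.

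For TRMs minus MDMs, genes called numbered 9 with a pseudocount of 1, 0 under TMM scaling, 12 under quantile scaling and 3 on reads outside mitochondrial genes, against 26, and 0 to 2279 without 1 library, with 0 to 1 of the 10 genes. Without 1 library, 952 to 3101 genes and 5 to 9 of the 10 differed for tumor cells minus TRMs, and 811 to 2756 genes and 5 to 8 of the 10 for tumor cells minus MDMs.

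Signs changed in TRMs for Nfkbia (-0.15 under quantile scaling, -0.29 under TMM, -0.30 on reads outside mitochondrial genes, -0.31 under limma-voom) and Tnfaip3 (-0.086 under TMM, -0.10 on reads outside mitochondrial genes, -0.10 under limma-voom), and in MDMs for Il1b (0.24 under quantile scaling). Without 1 library the log2 fold changes in TRMs ran from -0.77 to 0.33 for Il1b, -1.06 to 0.79 for Il1a, -1.83 to 0.36 for Tnf, -0.92 to 0.88 for Il6, -0.33 to 0.50 for Nfkbia and -0.047 to 0.63 for Tnfaip3. In MDMs they ran from -0.27 to 0.069 for Tnfaip3, -0.62 to 1.29 for Il1a, -0.65 to 0.78 for Tnf and -0.93 to 0.17 for Il6.

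The replicate numbers in the labels did not pair the samples (correlation of replicate deviations between genotypes 0.02 in tumor cells, -0.06 in TRMs and 0.05 in MDMs). With the replicate block, 470 genes were called in TRMs, 1 for TRMs minus MDMs, 5388 in tumor cells and 0 in MDMs. With the block the calls of Nfkbia (tumor cells minus TRMs) and Il6 (tumor cells minus MDMs) were lost, and those of Tnf (tumor cells minus TRMs) and Il1a (tumor cells minus MDMs) were gained.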
